A study of Mus musculus with 5 samples.

Results

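The genes described here build the outer skin barrier and the desmosomes that hold keratinocytes together, measured in sorted cells of the pigment lineage. They were taken as a fixed list of 38 mouse genes, and 37 of them were among the 24100 genes of the count table. Flg (profilaggrin) was not analysed here. The list was divided by role into 23 barrier and cornification genes (22 measured), 10 desmosome genes and 5 regulators.

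RNA was sequenced (poly-A selected, non-stranded) from cells sorted out of the back skin of male mice of a mixed CD1 and C57Bl6J background, as part of work on how BMP signals control the step from stem cell to pigment cell. The first group was quiescent melanocyte stem cells (McSC) of the second telogen, the resting phase of the hair cycle, in 2 libraries from postnatal days 60 and 62 with 4 males pooled in each. These mice carried the Dct-eGFP reporter. The second group was melanocytes of full anagen, the growth phase, in 3 libraries from postnatal day 10 with 3, 2 and 4 males pooled, and these mice carried Dct-EGFP together with a Lef1-RFP reporter. Both groups were gated as positive for the Dct reporter, with medium to low integrin α6 and without CD31, CD45, CD140a, Sca1 or CD34. The melanocytes were also gated for Lef1-RFP and c-Kit, so age, hair cycle stage, reporter and gate differ together and cannot be told apart.

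The epidermis is a layered epithelium. Basal keratinocytes divide, and as they move outward they switch on differentiation keratins, then barrier proteins that transglutaminases join into a cornified envelope, while lipid enzymes fill the space between the dead cells and proteases control their shedding. Desmosomes are junctions in which desmogleins and desmocollins span the membrane and plakoglobin, plakophilins and desmoplakin tie them to keratin filaments. Hair follicle epithelium has desmosomes too, and some barrier enzymes also harden the hair and its inner root sheath. Pigment cells are not known for a cornification program.

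Library depth ranged from 17512381 to 124530834 counts. The pigment markers Dct, Tyr, Tyrp1, Pmel, Mlana, Mitf, Sox10, Pax3 and Kit were detected in every library, and their summed level was 20249 and 21684 CPM (CPM being counts scaled to a common library size with TMM factors) in the quiescent McSC libraries and 3021, 17666 and 19250 CPM in the melanocyte libraries. Most of this sum came from Dct, Tyrp1 and Pmel. Of the 9 markers, 5 were not called and 4 were higher in the stem cells: Mitf (mean 1105 against 101 CPM), Pax3 (1289 against 60.7), Sox10 (456 against 130) and Kit (1599 against 365.2), the last although the melanocytes were gated for c-Kit. Without melanocyte replicate 1, 4 of the 9 were higher in melanocytes and 5 in the stem cells. That library stood apart in the sum. The quiescent McSC libraries differed in the suprabasal keratin Krt10 (1261 CPM in replicate 2 against 657 CPM in replicate 1). With 2 libraries it cannot be said which of them is unusual. The member counts are also given without melanocyte replicate 1 and without quiescent McSC replicate 2. Transcripts of keratinocyte marker genes were present in both groups. The basal keratinocyte markers Krt5, Krt14, Krt15, Col17a1, Itgb4 and Lamb3 summed to 1768 and 2090 CPM in the quiescent McSC libraries and to 1808 to 2779 CPM in melanocytes, and none was at 0. In these bulk samples more cells of a type and more RNA per cell cannot be told apart, and whether keratinocyte RNA accounts for the members' levels was not tested.

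The members, which were chosen with earlier results of these data known, divided in part by role. Of the 22 barrier and cornification genes, quiescent McSC had the higher level in 12 and melanocytes in 4, and 6 were not called. Of the 10 desmosome genes, 8 were higher in melanocytes, 0 were lower (0 also at an unadjusted edgeR p under 0.05 and 0 by DESeq2) and 2 were not called. Of the uncalled, Dsg1a had a log2 fold change (melanocyte minus quiescent McSC) of -0.41, or -0.68 without quiescent McSC replicate 1. All 5 regulators were higher in melanocytes. Calls are edgeR quasi-likelihood tests with a Benjamini-Hochberg adjusted p under 0.05 over all 16953 tested genes. Across those genes 26.2% were called higher in the stem cells and 29.1% in the melanocytes (55.4% in all), and the median log2 fold change, melanocyte minus quiescent McSC, was 0.03. The medians were -2.36 for the barrier genes, 1.14 for the desmosome genes and 2.86 for the regulators. All 37 members passed the filter on low counts. The groups did not overlap in 33 of them, against 74.5% of tested genes. Without melanocyte replicate 1, quiescent McSC had 13 barrier genes higher, and melanocytes 4 barrier genes, 8 desmosome genes and 5 regulators. Without quiescent McSC replicate 2 these counts were 11, 4, 8 and 5.

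**Figure D1:**
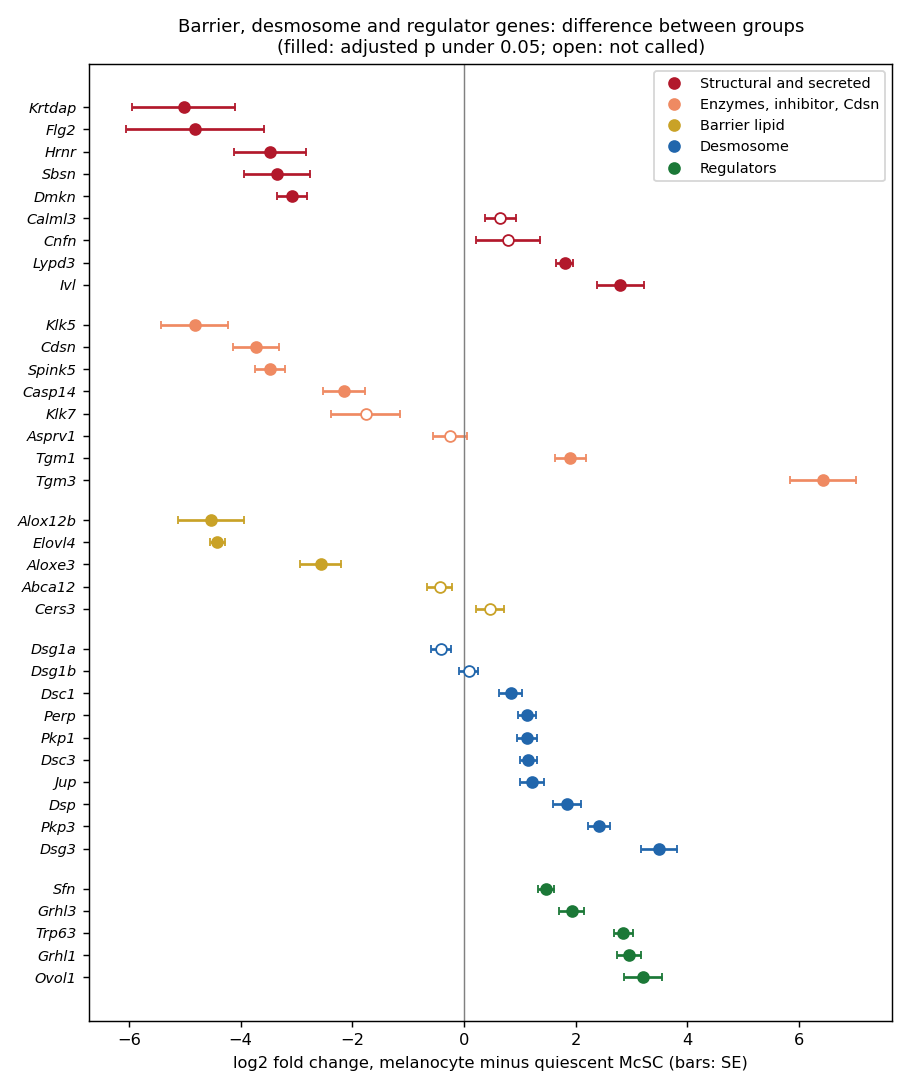
Log2 fold change of each measured member, melanocyte minus quiescent McSC, with its standard error, grouped by role. Filled points passed an adjusted p of 0.05; barrier genes spread from -5.01 (Krtdap) to 6.43 (Tgm3), while 9 of the 10 desmosome genes and all regulators lie right of 0.

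Summed over members, the barrier genes read 943 and 1511 CPM in the quiescent McSC libraries and 598, 640 and 432 CPM in melanocytes. The desmosome genes read 1202 and 1489 against 3505, 3789 and 2874 CPM, and the regulators 372 and 369 against 1652, 1793 and 1439 CPM. The 3 sums did not overlap between the groups. Among the barrier genes, the sum of the enzymes, counted with Spink5 and Cdsn, did overlap (117 and 190 against 167, 210 and 110 CPM). The sums of the structural genes (574 and 1055 against 400, 389 and 287 CPM) and of the lipid genes (252 and 266 against 31.1, 40.4 and 34.7 CPM) did not. Single genes weighed heavily in 2 of these sums. Elovl4 alone gave 221 and 225 against 9.13, 11.4 and 10.9 CPM of the lipid sum. Tgm3 alone gave 1.76 and 0.696 against 105, 138 and 64.8 CPM of the enzyme sum. Within a library the log2 ratio of the barrier to the desmosome sum, which no library scaling can change, was -0.35 and 0.02 in quiescent McSC and -2.55, -2.57 and -2.73 in melanocytes. All members together took 0.233% and 0.303% of all counts in quiescent McSC and 0.507% to 0.639% in melanocytes.

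Several marker lists differed between the groups beside these sums. The suprabasal keratinocyte markers Krt1, Krt10, Krt2, Krt77, Krt80 and Sptlc3 summed to 1233 and 2357 CPM in the quiescent McSC libraries and to 32.7 to 141 CPM in melanocytes. Of these, 5 of 6 were higher in quiescent McSC, Krt2 was not called, and Krt2 had no count in melanocyte replicate 1. The inner root sheath markers summed to 52.1 and 32.6 CPM in the quiescent McSC libraries and to 3054 to 4358 CPM in melanocytes, with 8 of 8 higher there. Krt72, one of these 8, had no count in quiescent McSC replicate 1. The hair shaft and matrix markers summed to 62.2 and 29.7 CPM in the quiescent McSC libraries and to 1213 to 1536 CPM in melanocytes, with 9 of 9 higher there. Krt34 had no count in either quiescent McSC library and Krt86 none in replicate 2. Of the 6 basal keratinocyte markers, 2 were higher in melanocytes and 3 in the stem cells, and their sums overlapped between the groups. The infundibulum and sebaceous markers also overlapped in sum (958 and 894 CPM against 1305, 1050 and 836 CPM), with 2 of 8 higher in melanocytes and 4 in the stem cells. Of 5 immune markers, 2 were higher in each group (sums 12.1 and 12.8 CPM against 30.1, 16.0 and 21.9 CPM), with Cd3e at no count in quiescent McSC replicate 1. Fibroblast and endothelial markers were also higher in melanocytes (7 of 7 and 5 of 5), although the gate left out CD140a and CD31. The fibroblast sum was 39.8 and 11.6 CPM against 5240, 2006 and 1877 CPM, and the endothelial sum 0.722 and 1.12 CPM against 31.6, 40.9 and 16.4 CPM, with Cdh5 and Emcn at no count in quiescent McSC replicate 1. The part of these cells in the members' differences was not tested.

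**Figure D2:**
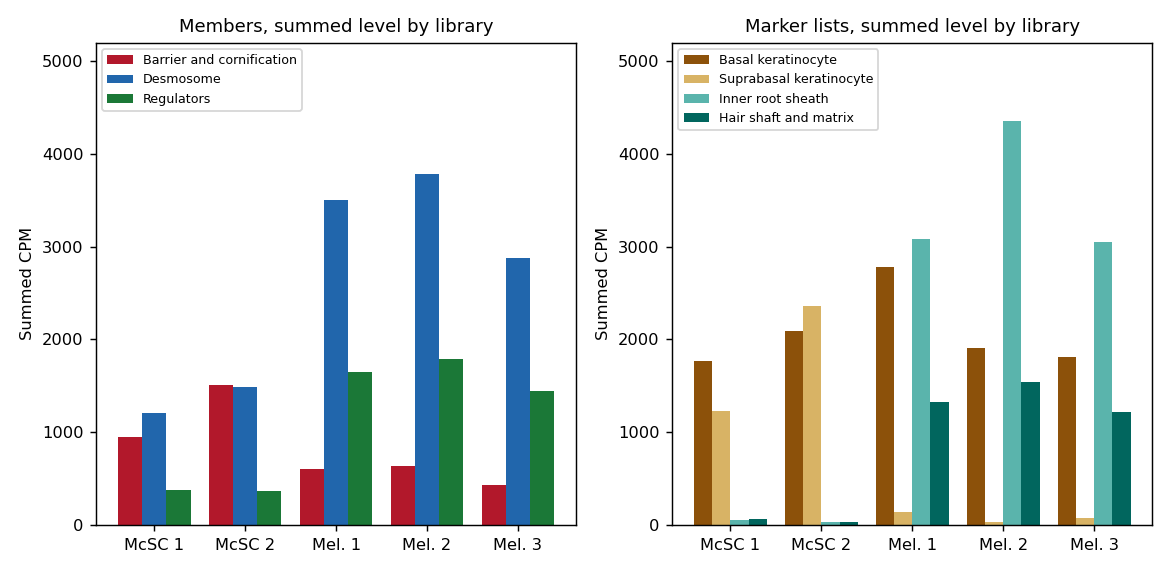
Summed TMM-normalized CPM of the members (left) and of 4 marker lists (right) in each library, McSC 1 and 2 and melanocyte 1 to 3. The barrier sum is the higher of the 2 groups in McSC and the desmosome sum in melanocytes; the suprabasal sum reaches 2357 CPM in McSC 2 and the inner root sheath sum 4358 CPM in melanocyte 2.

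Secreted and structural proteins of the upper epidermis were mostly higher in quiescent McSC. Krtdap, a small secreted protein of differentiating keratinocytes, stood at 101 and 195 CPM in the quiescent McSC libraries and at 9.91, 0.909 and 2.94 CPM in the melanocyte libraries. Replicate 2 was the higher quiescent McSC library, melanocyte replicate 1 the highest of its group, and the groups did not overlap. The group means were 148 ± 66.8 and 4.59 ± 4.72 CPM (SD, n = 2 and n = 3, as for all means below), a log2 fold change of -5.01 ± 0.92 SE (edgeR adjusted p = 0.00498). Dmkn (dermokine) read 201 and 376 CPM against 37.8, 32.6 and 32.3 CPM. Its melanocyte libraries lay close together, and the log2 fold change was -3.07 ± 0.27 (edgeR adjusted p = 0.000319). Sbsn (suprabasin) read 165 and 337 CPM against 44.9, 14.5 and 14.3 CPM, again highest in replicate 1 among the melanocytes (-3.35 ± 0.60, edgeR adjusted p = 0.00436).

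The filaggrin-related S100 fused-type proteins Hrnr (hornerin) and Flg2 were low in both groups and higher in quiescent McSC. Hrnr read 9.01 and 8.19 CPM against 0.715, 0.279 and 1.5 CPM (-3.47 ± 0.64, edgeR adjusted p = 0.00501), and its quiescent McSC libraries were nearly level. Flg2 read 15.6 and 41.6 CPM against 1.55, 0.0147 and 1.71 CPM, where the lowest value was a single count. Its call (-4.82 ± 1.23, edgeR adjusted p = 0.0174) did not hold when quiescent McSC replicate 2 was left out (adjusted p = 0.108).

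A pair of structural genes went the other way. Ivl (involucrin), a scaffold of the cornified envelope, read 7.38 and 15.4 CPM in the quiescent McSC libraries and 77.8, 104 and 56.1 CPM in melanocytes (2.80 ± 0.42, edgeR adjusted p = 0.00218). Every melanocyte library was above both quiescent McSC libraries. Lypd3, a membrane-anchored protein of suprabasal keratinocytes, read 45.7 and 49.9 CPM against 184, 171 and 144 CPM (1.80 ± 0.14, edgeR adjusted p = 0.000247). Calml3, a calmodulin-like protein of epithelium, read 27.4 and 28.1 against 42.0, 58.5 and 30.2 CPM and was not called (0.65 ± 0.27, edgeR adjusted p = 0.0867), and Cnfn (cornifelin) overlapped between the groups at 1.65 to 6.58 CPM (0.79 ± 0.58, edgeR adjusted p = 0.283).

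Several of these genes are neighbours. Sbsn, Dmkn and Krtdap follow each other on chromosome 7 (GRCm38) with gaps of 7.62 and 6.84 kb and no protein-coding gene between them, and all were higher in quiescent McSC. On chromosome 3, Flg2 and Hrnr lie 98.4 kb apart with 1 protein-coding gene between and were both higher in quiescent McSC. Ivl lies 623 kb from Flg2 in the same gene complex, with 27 protein-coding genes between, and was higher in melanocytes. The promoter windows of the chromosome 7 trio, Flg2 and Ivl are shown because these 5 are the members higher in either group whose window holds the AP-1 motif TGANTCA (capitals). Each window runs from 250 bases before to 50 bases after a RefSeq start on GRCm38.p6, written 5′ to 3′ on the gene's strand. Krtdap is chr7:30787655-30787954 (plus strand), Sbsn chr7:30751221-30751520 (plus, at a start inside the annotated gene), Dmkn chr7:30763506-30763805 (plus, the first of 3 windows), Flg2 chr3:93197023-93197322 (plus) and Ivl chr3:92573686-92573985 (minus).
Krtdap: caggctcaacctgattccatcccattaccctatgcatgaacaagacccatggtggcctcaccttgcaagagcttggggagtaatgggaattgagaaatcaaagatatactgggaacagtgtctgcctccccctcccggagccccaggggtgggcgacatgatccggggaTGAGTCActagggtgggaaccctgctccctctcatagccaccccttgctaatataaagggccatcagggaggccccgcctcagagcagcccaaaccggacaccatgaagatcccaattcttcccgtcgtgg
Sbsn: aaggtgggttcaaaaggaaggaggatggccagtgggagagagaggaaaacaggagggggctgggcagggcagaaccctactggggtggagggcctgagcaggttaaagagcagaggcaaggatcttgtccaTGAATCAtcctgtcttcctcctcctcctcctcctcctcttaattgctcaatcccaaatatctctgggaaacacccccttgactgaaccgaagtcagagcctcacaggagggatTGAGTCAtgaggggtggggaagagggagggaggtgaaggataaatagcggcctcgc
Dmkn: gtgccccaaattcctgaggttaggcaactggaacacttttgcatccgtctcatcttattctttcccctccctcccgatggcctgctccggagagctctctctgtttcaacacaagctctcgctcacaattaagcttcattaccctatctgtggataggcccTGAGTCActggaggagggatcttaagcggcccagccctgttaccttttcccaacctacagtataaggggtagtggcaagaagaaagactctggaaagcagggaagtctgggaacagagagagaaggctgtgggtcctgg
Flg2: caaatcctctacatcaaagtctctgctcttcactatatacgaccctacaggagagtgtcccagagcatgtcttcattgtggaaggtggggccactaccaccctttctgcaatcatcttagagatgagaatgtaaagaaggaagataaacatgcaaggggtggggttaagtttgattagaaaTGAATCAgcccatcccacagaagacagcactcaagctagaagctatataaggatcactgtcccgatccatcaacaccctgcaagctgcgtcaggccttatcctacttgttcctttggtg
Ivl: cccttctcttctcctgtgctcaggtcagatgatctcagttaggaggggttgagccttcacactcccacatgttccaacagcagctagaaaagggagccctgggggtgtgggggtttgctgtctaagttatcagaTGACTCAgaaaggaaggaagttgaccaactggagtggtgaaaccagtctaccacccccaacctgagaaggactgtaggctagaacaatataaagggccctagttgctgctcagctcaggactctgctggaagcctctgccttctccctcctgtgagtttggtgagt

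The AP-1 match began 81 bases before the start in Krtdap, 89 in Dmkn, 69 in Flg2 and 116 in Ivl, and at 119 and 6 bases in Sbsn. The motif, with any base in its middle, reads the same on both strands. Its forms TGAGTCA and TGACTCA are the core bound by Fos and Jun dimers. The match was the looser form TGAATCA in Flg2 and at 119 bases in Sbsn. A RefSeq window was found for 24 of the 37 members. Among the desmosome genes only Dsp and Jup had a window, so the other desmosome genes were not searched, nor were Trp63 and Ovol1. Where a window was found, it held the AP-1 motif in 4 of 10 members higher in quiescent McSC, in 1 of 9 higher in melanocytes and in 0 of 5 not called. The share was 7.8% of 32851 windows in the table, though 4 members had more than 1 window. The 4 members higher in quiescent McSC were Flg2 and the neighbouring chromosome 7 trio. The Grhl motif AACCGGTT was in no member's window and in 0.1% of all windows, and its shorter form AACNNGTT was in that of Sfn (4.2% of all). CCGTTA, bound by Ovol factors, was in none (2.8% of all), and CCACACCC, bound by Klf factors, in Ivl, Casp14, Alox12b and Cnfn (3.6%). TATAAA was in Ivl, Tgm3, Hrnr and Krtdap (13.6%) and the motif of p63 in Dsp, Flg2, Hrnr, Cdsn and Abca12 (8.4%). Split like AP-1, the p63 motif was in 3 of 10 members higher in quiescent McSC, 1 of 9 higher in melanocytes and 1 of 5 not called. In the same order CCACACCC was in 2, 1 and 1 of them and TATAAA in 2, 2 and 0. These matches describe letters in the windows and no binding was measured.

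Enzymes of cornification and shedding divided by gene. The protease inhibitor gene Spink5 (LEKTI, which holds the shedding proteases in check) read 38.2 and 59.8 CPM in the quiescent McSC libraries and 4.02, 5.40 and 3.69 CPM in melanocytes. The groups lay far apart (-3.47 ± 0.27, edgeR adjusted p = 0.000216). One of its target proteases, Klk5, read 8.90 and 18.6 against 0.814, 0.235 and 0.428 CPM (-4.82 ± 0.60, edgeR adjusted p = 0.00113). The other, Klk7, read 13.7 and 26.7 against 10.9, 4.38 and 2.46 CPM. Its groups did not overlap, but melanocyte replicate 1 came close to quiescent McSC replicate 1, and it was not called (-1.76 ± 0.62, edgeR adjusted p = 0.052). Without melanocyte replicate 1 it was called (-2.52, adjusted p = 0.00163). Klk5 and Klk7 lie 17.8 kb apart on chromosome 7.

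Cdsn (corneodesmosin), the protein that turns desmosomes of the outermost layers into corneodesmosomes, read 19.6 and 34.2 CPM in the quiescent McSC libraries and 2.74, 2.11 and 1.12 CPM in melanocytes (-3.73 ± 0.42, edgeR adjusted p = 0.000763). Casp14, the caspase of cornification, read 6.80 and 5.44 against 1.87, 1.35 and 0.855 CPM (-2.15 ± 0.38, edgeR adjusted p = 0.00424). Neither gene overlapped between the groups. Asprv1, a protease that processes profilaggrin, overlapped fully, at 23.3 and 38.6 CPM against 21, 34.8 and 22 CPM (-0.25 ± 0.31, edgeR adjusted p = 0.517).

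Tgm1 and Tgm3, transglutaminases that cross-link the envelope, were higher in melanocytes. Tgm3, an enzyme of hair and epidermis, had the largest difference among the 17 members higher in melanocytes. It read 1.76 and 0.696 CPM in the quiescent McSC libraries and 105, 138 and 64.8 CPM in melanocytes, means of 1.23 ± 0.755 and 103 ± 36.7 CPM (6.43 ± 0.59, edgeR adjusted p = 0.000382). Tgm1, the membrane-bound enzyme of the granular layer, read 4.62 and 5.98 against 20.4, 24.2 and 15.0 CPM (1.91 ± 0.28, edgeR adjusted p = 0.002). For both, all melanocyte libraries lay above the quiescent McSC libraries.

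Of the 5 members that make or carry barrier lipids, 3 were higher in quiescent McSC and 2 were not called. Elovl4, which makes the very long fatty acids of barrier ceramides, was nearly equal in the quiescent McSC libraries, at 221 and 225 CPM, and stood at 9.13, 11.4 and 10.9 CPM in melanocytes. Its spread within each group was small and its log2 fold change was -4.41 ± 0.13 (edgeR adjusted p = 3.65e-05), the lowest p among the members. The epidermal lipoxygenases Alox12b and Aloxe3, which act in turn on the linoleate of ceramides and lie 7.96 kb apart on chromosome 11, were both higher in quiescent McSC. Alox12b read 1.65 and 3.88 CPM against 0.148, 0.0733 and 0.160 CPM, where the melanocyte libraries held 6, 5 and 3 counts (-4.53 ± 0.59, edgeR adjusted p = 0.00133). Aloxe3 read 5.15 and 5.82 against 1.23, 0.645 and 0.909 CPM (-2.57 ± 0.36, edgeR adjusted p = 0.00178).

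The lipid transporter Abca12, which loads lamellar granules, overlapped at 19.8 and 24.6 against 14.2, 20.6 and 14.4 CPM (-0.44 ± 0.23, edgeR adjusted p = 0.147). The ceramide synthase Cers3 read 4.73 and 6.12 against 6.41, 7.74 and 8.29 CPM and was not called either (0.46 ± 0.25, edgeR adjusted p = 0.16). Thus within the lipid genes the 3 that differed were apart by 5.90 to 21.8 times in mean CPM, and the mean of Abca12 was 1.36 times as high in quiescent McSC.

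**Figure D3:**
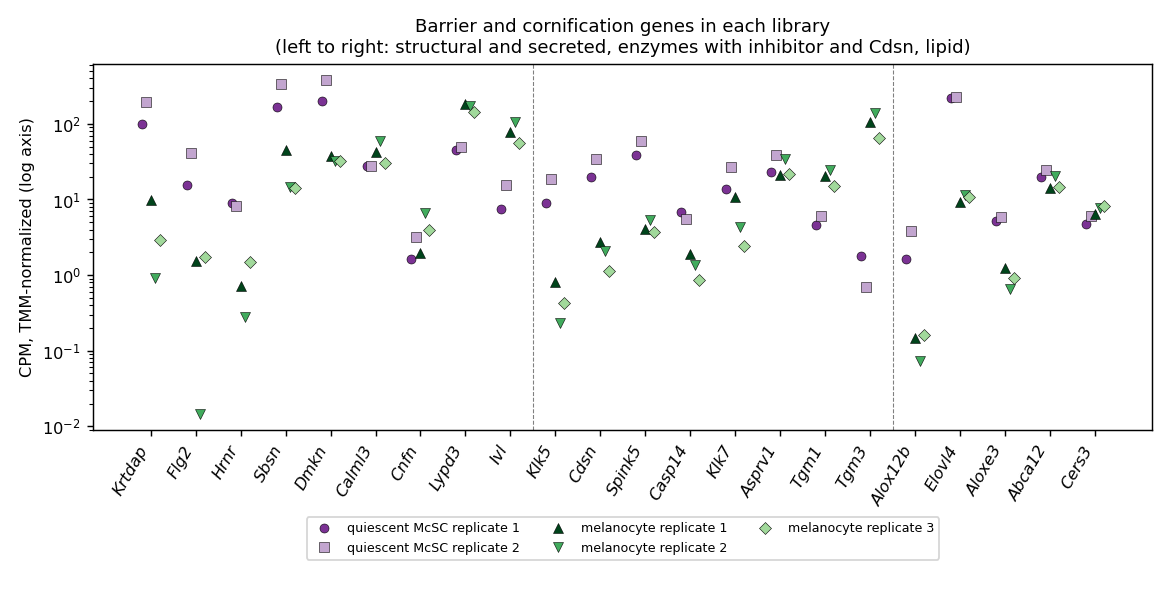
TMM-normalized CPM (log axis) of each barrier and cornification gene in the 5 libraries, ordered within each role by log2 fold change. Elovl4 is level in both McSC libraries (221 and 225 CPM), whereas Krtdap, Sbsn and Dmkn are higher in McSC replicate 2 than in replicate 1.

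The quiescent McSC libraries differed from each other in part of the barrier genes. Replicate 2 stood at 1.5 times replicate 1 or more in 12 of the 22 barrier genes, in 1 of 10 desmosome genes (Dsg1a) and in 0 of 5 regulators, against 9.08% of all tested genes. The ratio was 1.94 for Krtdap, 2.04 for Sbsn, 1.87 for Dmkn, 2.09 for Klk5 and 1.94 for Klk7. The rest of the 12 were Spink5 (1.56), Asprv1 (1.65), Cdsn (1.74), Cnfn (1.92), Ivl (2.08), Alox12b (2.35) and Flg2 (2.67). For the suprabasal keratin Krt10 the ratio was 1.92. Among the other suprabasal markers it was 1.68 for Krt1, 2.03 for Krt77, 2.00 for Krt80, 1.87 for Sptlc3 and 0.742 for Krt2. Krt2 read only 0.289 and 0.214 CPM. Set against Krt10 in the same library, Krtdap was level, at 15.4% and 15.5% of the Krt10 CPM, and Dmkn stood at 30.7% and 29.8%. Such shares depend on the marker chosen, and Krtdap would not be level against Krt1. Other barrier genes did not share the Krt10 ratio. Their ratios were 1.02 for Elovl4, 0.908 for Hrnr, 0.799 for Casp14 and 1.13 for Aloxe3, so that Elovl4 stood at 33.6% of Krt10 in replicate 1 and at 17.9% in replicate 2. With 2 libraries these are ratios of single values and carry no test.

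**Figure D4:**
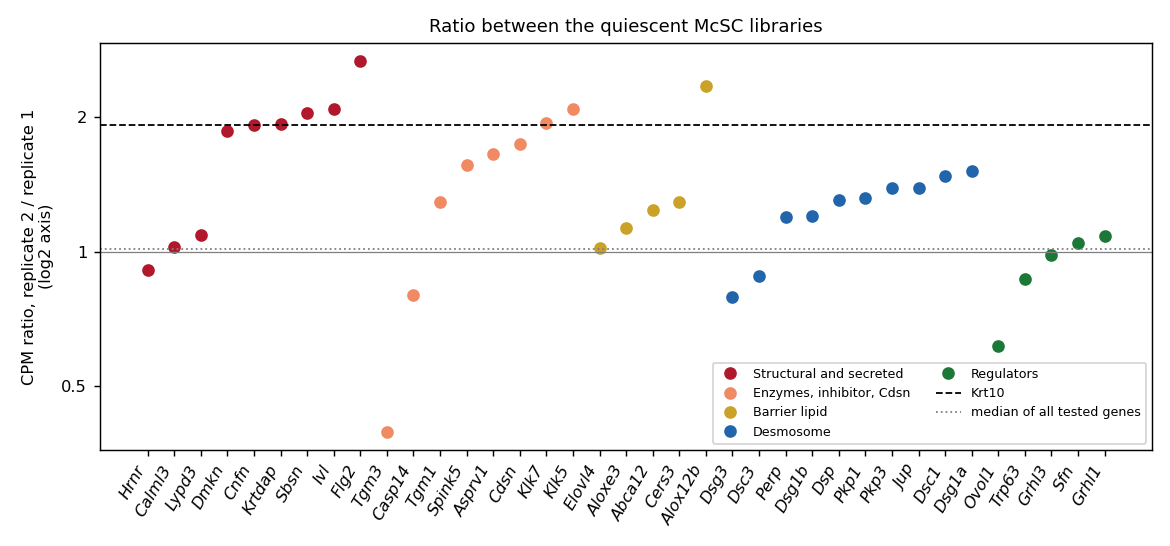
CPM in McSC replicate 2 divided by replicate 1 (log2 axis) for each member, with lines for Krt10 (1.92) and for the median of all tested genes (1.01). Krtdap, Dmkn, Cnfn, Klk7 and Sbsn lie near the Krt10 line, while Elovl4, Calml3, Sfn and Grhl3 lie near 1.

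Desmosomal cadherins differed by gene. Dsg3, the desmoglein of basal layers and of follicle epithelium, read 15.3 and 12.0 CPM in the quiescent McSC libraries and 155, 199 and 105 CPM in melanocytes (means 13.6 ± 2.28 and 153 ± 47.2 CPM). It had the largest log2 fold change of the desmosome genes, 3.49 ± 0.32 (edgeR adjusted p = 0.000371). Dsc3, its basal desmocollin counterpart, was already at 201 and 177 CPM in the quiescent McSC libraries and read 455, 438 and 368 CPM in melanocytes (1.15 ± 0.15, edgeR adjusted p = 0.00144). Dsc1, a desmocollin of the upper layers, read 27.5 and 40.7 against 51.3, 65.3 and 66.1 CPM (0.84 ± 0.21, edgeR adjusted p = 0.0164). It was not called when quiescent McSC replicate 1 (adjusted p = 0.0858) or replicate 2 of the melanocytes (0.0544) was left out.

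Dsg1a and Dsg1b, 2 of the mouse copies of desmoglein 1 of the upper epidermis, were the members of the desmosome group not called. Dsg1a read 124.6 and 188.5 CPM against 124.4, 114.1 and 114.9 CPM (-0.41 ± 0.18, edgeR adjusted p = 0.103), and its highest melanocyte library lay just under the lower quiescent McSC library. Dsg1b read 14.98 and 17.98 against 18.9, 17.4 and 16.0 CPM (0.08 ± 0.17, edgeR adjusted p = 0.704). Without quiescent McSC replicate 1, Dsg1a was called higher in quiescent McSC (-0.68, adjusted p = 0.0206). A further copy, Dsg1c, which lies between Dsc1 and Dsg1a, averaged 0.598 and 0.699 CPM and was not called either. Dsg1a and Dsg1b are near-identical relatives 33.4 kb apart, so the split of reads between the copies is uncertain. On chromosome 18 the order of the members is Dsc3, Dsc1, Dsg1a, Dsg1b, Dsg3, and the members at both ends were higher in melanocytes with the uncalled pair between them.

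The intracellular plaque genes among the members (Dsp, Pkp3, Pkp1 and Jup) were higher in melanocytes. Dsp (desmoplakin), which anchors keratin filaments, read 260 and 340 CPM in the quiescent McSC libraries and 1123, 1291 and 829 CPM in melanocytes, the highest CPM of any member (1.85 ± 0.25, edgeR adjusted p = 0.00161). Pkp3 (plakophilin 3) read 35.0 and 48.5 against 227.3, 248 and 194 CPM (2.42 ± 0.20, edgeR adjusted p = 0.000274), the largest difference of these 4. Pkp1, the plakophilin of upper layers, Jup (plakoglobin, shared with adherens junctions) and the membrane protein gene Perp, a p63 target needed for desmosomes, differed by 1.13 ± 0.19, 1.21 ± 0.22 and 1.12 ± 0.16. Their levels in quiescent McSC were already 118 to 337 CPM, and in melanocytes 255 to 744 CPM, without overlap for any of these genes.

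The regulators were higher in every melanocyte library than in either quiescent McSC library. Trp63, the transcription factor that specifies stratified epithelium, read 89.6 and 77.6 CPM in the quiescent McSC libraries and 611, 658 and 546 CPM in melanocytes (2.86 ± 0.16, edgeR adjusted p = 9.03e-05). Grhl1, a grainyhead factor known to act on desmosomal cadherin genes, read 30.8 and 33.4 against 262, 291 and 192 CPM (2.95 ± 0.21, edgeR adjusted p = 0.00018). Grhl3, its relative required for barrier formation, was lower in level, at 5.94 and 5.84 against 27.5, 19.1 and 20.8 CPM (1.93 ± 0.22, edgeR adjusted p = 0.000868). In direction the regulators went with the 8 called desmosome genes, and also with the 4 barrier genes higher in melanocytes. A link between them was not tested. Ovol1, a zinc finger factor that limits proliferation of keratinocytes, read 11.9 and 7.30 against 84.8, 114 and 64.8 CPM (3.20 ± 0.34, edgeR adjusted p = 0.000638). It shares sequence with Ap5b1, whose mean was 2.42 CPM in the quiescent McSC libraries and 9.89 CPM in melanocytes, and without strand their reads in the overlap cannot be told apart. Sfn (14-3-3 sigma), a cell cycle brake of keratinocytes, read 234 and 245 against 667, 711 and 615 CPM (1.47 ± 0.14, edgeR adjusted p = 0.000446).

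**Figure D5:**
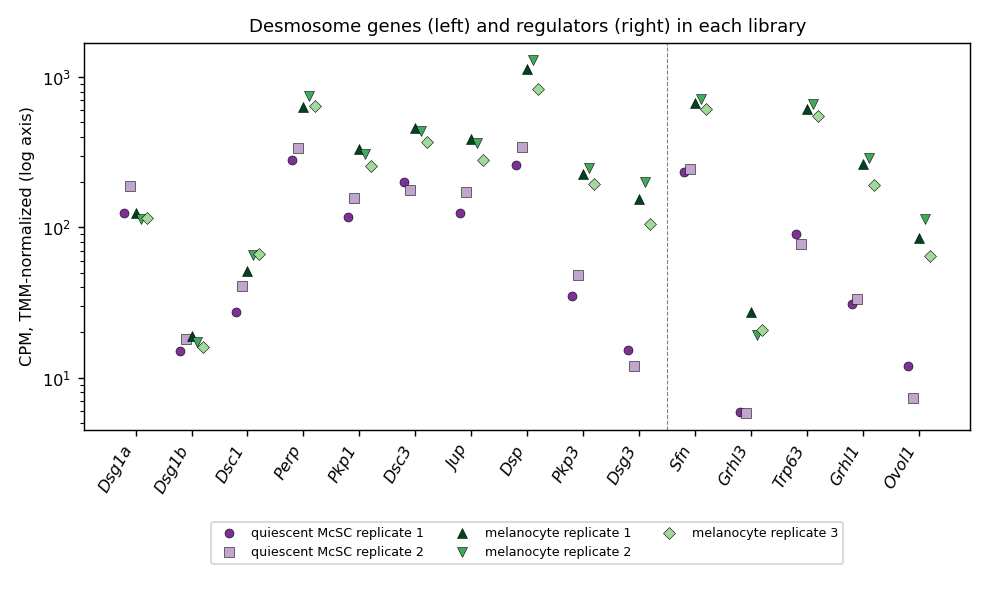
TMM-normalized CPM (log axis) of the desmosome genes and the regulators in the 5 libraries. Dsg1b overlaps between the groups, Dsg1a is level but for McSC replicate 2, and the other genes have all 3 melanocyte libraries above both McSC libraries, by a ratio of means from 1.79 (Dsc1) to 11.2 (Dsg3).

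Divided by exon length, the leading members differed between the groups. In quiescent McSC the highest mean levels per kilobase of exon were those of Krtdap (218 CPM per kb), Perp (158), Sfn (149) and Dmkn (132). In melanocytes they were those of Sfn (412 CPM per kb), Perp (345), Dsp (112) and Lypd3 (101), and Krtdap stood at 6.76.

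Other genes of the same systems were read from lists. Their counts stand beside the shares of all tested genes, 29.1% higher in melanocytes and 26.2% in quiescent McSC. The counts of the cornified and lipid lists lay near these shares. Of 26 further cornified envelope genes, 21 were tested, 6 had the higher level in melanocytes and 6 in the stem cells. Lor (loricrin), the main envelope protein, averaged 43.1 ± 32.4 CPM in the quiescent McSC libraries and 5.30 ± 3.73 CPM in melanocytes (-3.06 ± 0.73, edgeR adjusted p = 0.0134; 0.106 without quiescent McSC replicate 2). The keratinocyte proline-rich gene Kprp (-4.63 ± 1.06) and Lce6a (-2.75 ± 0.69) were higher there too. The calls of Kprp and Lce6a were lost without quiescent McSC replicate 2 (0.0597 and 0.0584), and that of Lce6a also without replicate 1 (0.082). Crnn (cornulin) had no count in quiescent McSC and 1299 in melanocytes, at least 592 times as high against a floor of 3 counts over the group. Sprr1b (3.24 ± 0.53) and Ppl (periplakin, 1.33 ± 0.22) were also higher in melanocytes. The number higher in quiescent McSC, 6 with all libraries, was 2 without quiescent McSC replicate 1, 0 without quiescent McSC replicate 2 and 11 when replicate 1 of the melanocytes was left out.

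Of 6 further desmosome genes, 3 had the higher level in melanocytes and 1 in the stem cells. Dsg2 averaged 10.1 ± 3.55 and 152 ± 43.7 CPM (3.91 ± 0.37, edgeR adjusted p = 0.000411), and the hair desmoglein Dsg4 (5.55 ± 1.20) and Dsc2 (1.89 ± 0.35) were higher as well. Pkp4, a plakophilin relative of adherens junctions, was higher in quiescent McSC (-1.30 ± 0.13). Of 11 genes of tight and adherens junctions, Cldn1 (1.14 ± 0.12), Cldn4 (1.75 ± 0.19) and Ocln (1.5 ± 0.21) were higher in melanocytes. There 4 were higher in quiescent McSC, among them Cdh3 (-1.54 ± 0.16), Cdh1 (-1.14 ± 0.13) and Ctnnd1 (-1.27 ± 0.14).

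Of 14 further protease, inhibitor and modifying genes, 13 were tested, 7 had the higher level in melanocytes and 3 in the stem cells. St14 (matriptase) averaged 17.9 ± 1.40 and 293 ± 14.6 CPM (4.03 ± 0.14, edgeR adjusted p = 3.65e-05). Its inhibitor gene Spint1 (3.21 ± 0.17) and the protein deiminase gene Padi1 (6.0 ± 0.36) were higher in melanocytes too. The transglutaminase Tgm5, unlike Tgm1 and Tgm3, was higher in quiescent McSC (-4.39 ± 0.48), as were Serpinb2 (-4.09 ± 0.19) and Klk11 (-3.17 ± 1.03). The Klk11 call was lost without either quiescent McSC library (adjusted p = 0.0823 and 0.181), without melanocyte replicate 3 (0.103), with library size only (0.061) and in the fit with a replicate block (0.0892).

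Of 15 further barrier lipid genes, 4 were higher in melanocytes, including Pnpla1 (1.95 ± 0.28), Nipal4 (1.84 ± 0.44) and Smpd1 (1.71 ± 0.43), and 5 in quiescent McSC, including Elovl1 (-1.65 ± 0.23), the ceramidase Acer1 (-1.53 ± 0.23) and Lipn (-5.51 ± 1.02). Smpd1 lost its call without either quiescent McSC library (0.106 and 0.076) or melanocyte replicate 2 (0.0534), and Nipal4 without quiescent McSC replicate 1 (0.0813). The number higher in melanocytes fell to 1 without quiescent McSC replicate 1 and to 2 without replicate 2, and the number higher in quiescent McSC to 3 without replicate 2. Of 15 further regulators of epidermal differentiation, 10 were higher in melanocytes, among them Zfp750 (2.64 ± 0.18) and Hopx (1.81 ± 0.16). Klf4, a transcription factor required for barrier formation, averaged 1237 ± 253 CPM in the quiescent McSC libraries and 68.9 ± 11.1 CPM in melanocytes (-4.17 ± 0.22, edgeR adjusted p = 7.33e-05), and Satb1 (-2.03 ± 0.26) was the other one higher in quiescent McSC.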

How the data were processed

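Counts per Entrez gene and library were used as deposited by the authors, whole numbers without normalization or pooling. The submitters' processing notes name the build mm10 and the tools STAR 2.5.2a and Salmon 0.8.2. Which program made the counts, and on which annotation, is not given in the sources used here. Of 24100 genes, 24045 matched a RefSeq symbol (GRCm38.p6, the same build). Exon lengths are unions of GENCODE M21 exons. Genes were filtered with filterByExpr, scaled with TMM and tested with edgeR 4.0.16 (R 4.3.3, quasi-likelihood F-test, two-sided, all 5 libraries, no covariates). Standard errors are the log2 fold change divided by the root of F. The procedure was tested on simulated data in which few genes changed, unlike the 55.4% called here. That test therefore gives no error rate for these data. The labels call the libraries biological replicates of pooled males. A count of 3 is 0.0268 to 0.160 CPM, which covers counting error only, as do floors.

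The members and gene lists were chosen with earlier results of these data known. Values in every library are given for up to 4 called members per role and direction with the lowest p and for uncalled members of at least 20 CPM in a group, and for other members where shown. Up to 3 genes per direction are named from each further list, and 1 such gene is not reported here. Alternatives were RLE size factors, library size only, no filter, at least 5 CPM in 2 libraries, DESeq2 1.42.0, voom of limma 3.58.1, a replicate block, thinning to the shallowest library and leaving out each library. A lone quiescent McSC library is assumed to vary like the melanocytes.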

Additional observations from a re-analysis of the deposited data

How the results depend on the processing

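Of the 29 called members, 27 kept their direction and call in all 13 alternatives that tested them (33 of 37 members passed the filter of 5 CPM). The exceptions were Flg2 and Dsc1. Klk7 was called higher in quiescent McSC by DESeq2, voom, RLE size factors, no filter and without melanocyte replicate 1. Calml3 was called higher in melanocytes with library size only, by voom, with the replicate block and without melanocyte replicate 3, and Abca12 higher in quiescent McSC without melanocyte replicate 2. Directions turned in Asprv1 (-0.57 to 0.15 with 1 library left out, above 0 without quiescent McSC replicate 2) and Dsg1b (-0.044 to 0.22, below 0 without quiescent McSC replicate 1), neither of them called. Replicate numbers are not said to pair libraries. Correlations of same-numbered libraries (0.04 and -0.06) cannot decide it, because the deviations of the quiescent McSC libraries from their mean mirror each other. In the fit with the replicate block, 5 and 12 barrier genes, 8 and 0 desmosome genes and 5 and 0 regulators were higher in melanocytes and quiescent McSC. Melanocyte replicate 3 stood alone in its block there and added nothing to the difference.

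Leaving out 1 library at a time gave 0 to 1 desmosome genes higher in quiescent McSC, 12 to 27 genes of the further lists (21 with all libraries) and 2955 to 4857 of all genes (4448), the last 2 lowest without quiescent McSC replicate 2 and the first at 1 without quiescent McSC replicate 1 (Dsg1a). The log2 ratio of barrier to desmosome sums in quiescent McSC ran from -0.35 to 0.021, the latter without replicate 1. Without the most abundant member of each role it was -2.16 in melanocytes, and the log2 difference of the barrier sums went from -1.12 to -0.83. The log2 difference of the regulator sums then rose from 2.13 to 2.87. That difference was 2.35 with library size only. That scaling moved the median of all genes from 0.03 to 0.26 and the share of calls higher in melanocytes from 52.6% to 63.7%, but turned no member's direction. Of the further cornified genes, 3 were higher in quiescent McSC by DESeq2 or with at least 5 CPM in 2 libraries, and 10 by voom. The cause of these changes was not tested.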
